A study of Ceratina calcarata with 12 samples.

Results

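The CpGs described here are those with very high read coverage in bisulfite sequencing of heads of the small carpenter bee Ceratina calcarata. A CpG is a cytosine followed by a guanine, and its coverage is the number of sequenced reads that report on it. A CpG was taken as a member when its coverage exceeded 170 reads in at least 1 of 6 libraries, with positions of the lambda control DNA left out. The members were thus chosen by measured coverage, and the rule took 974 of the 278132 listed CpGs, on 304 of 2149 scaffolds. Coverage is therefore given as a description without a test. The methylation level, which is the percent of reads at a CpG that were methylated, was not used by the rule.

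Nests in stems of Rhus typhina were brought to the laboratory while the offspring were eggs or small larvae, the brood was reared there, and the heads came from newly eclosed adult females. In the care group the mother was left with her nest, and in the no care group she was removed after provisioning, which left the brood orphaned. Each group had 3 libraries, and each library was a pool of 9 heads from different nests, so every level is an average over bees and over all tissues of the head. P-values of exact permutation tests measure the spread between these pools, whereas those of the regressions on reads measure counting error only. The comparison of care with no care asks whether methylation at these CpGs differed with the presence of the mother.

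In bees and other hymenopterans, methylated CpGs lie mostly within the bodies of genes, in exons above all, and the bulk of the genome carries little methylation. Bisulfite turns unmethylated cytosines into uracil and leaves methylated cytosines as they are, so a small share of failed conversion looks like methylation. Lambda phage DNA is added as an unmethylated control to measure that share. DNA present in many copies, such as tandem satellite repeats, ribosomal genes or the mitochondrial genome, is known for collecting far more reads per assembled position than single-copy DNA does. The class of sequence at each member was not analysed here, and gene models were not placed on these scaffolds.

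Coverage of the members spanned 3 orders of magnitude. The care libraries, in the order of replicates 1, 2 and 3 that is kept throughout, covered a typical CpG with a median of 15, 28 and 15 reads, and the no care libraries with 24, 22 and 20. For the members this median was 215.5, 346 and 207 in care and 317, 291 and 225.5 in no care. The highest coverage of any member was 54579, 71522 and 66577 reads in care and 62399, 60929 and 65473 reads in no care, not always at the same CpG. Averaged over the 6 libraries, a member had 43.3 reads at the least, 262 at the median and 63387 at the most. Divided by the median of each library, the median member lay at 12.7 times, the upper quartile at 89.9 times and the deepest at 3204 times that of a typical CpG. The 974 members held between 36.7% and 48.4% of all reads on listed CpGs, and the 100 deepest held 76.9% of the reads of the members.

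Membership depended on the depth of each library for the shallower members. The limit was passed by 573, 867 and 548 members in care replicates 1, 2 and 3 and by 794, 747 and 606 members in no care replicates 1, 2 and 3. It was passed in all 6 libraries by 504 members (51.7%) and in exactly 1 library by 184, of which 117 passed in care replicate 2 alone. The 4 members just inside the limit, with a highest coverage of 171 reads, had mean levels of 26.6% (scaffold71, position 443483), 7.28% (scaffold90, position 83252), 2.17% (scaffold21150, position 98) and 2.16% (scaffold564.2, position 225). The 4 CpGs just outside, with a highest coverage of 170 reads, had 19.1% (scaffold330, position 35304), 15.8% (scaffold573.2, position 3382), 3.26% (scaffold203, position 422003) and 1.59% (scaffold369.2, position 993134). Both sides of the limit therefore held methylated and nearly unmethylated CpGs.

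Relative coverage of a member was similar between libraries for most members. The highest of the 6 multiples of the library median was 1.73 times the lowest at the median member, against 1.75 times at the other CpGs with at least 10 reads in every library. It stayed under 2 times at 682 members (70.0%). It exceeded 5 times at 65 members, and 50 of these were the members of scaffold1547.

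The members were spread unevenly over scaffolds, with 199 of the 304 scaffolds holding a single member and 21 holding at least 10. With members no more than 500 bp apart counted together, they formed 369 clusters, of which 270 held a single member and 22 held at least 10, with 457 members (46.9%). Neighbouring members on a scaffold were no closer together than listed CpGs in general, at 30 bp apart at the median, against 25 bp over the whole list. On 175 scaffolds every listed CpG was a member, and 129 of these scaffolds listed a single CpG. On 26 scaffolds fewer than 5% of the listed CpGs were members. Scaffold48.2 was among these, with 57 members among 10819 listed CpGs, and it still held more members than any other scaffold.

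Reads were concentrated further than members. Scaffold677 listed 47 CpGs, of which 45 were members, and these held 44.1% of all member reads at a mean coverage of 45736 reads. Scaffold614 (26 of 30 CpGs) held 12.6%, scaffold478 (16 of 18) held 10.2%, scaffold1400 (14 of 14) held 6.88% and scaffold986 (41 of 48) held 5.25%. These 5 scaffolds held 79.0% of member reads and the 10 leading scaffolds held 90.9%. On the deepest scaffolds nearly every listed CpG was thus a member.

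**Figure D1:**
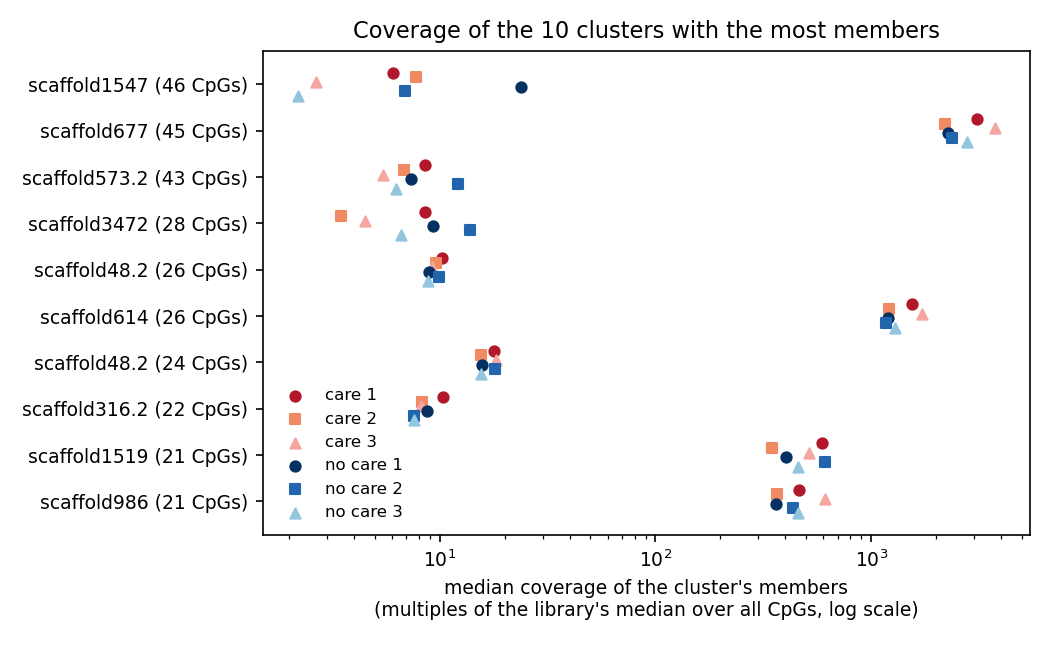
Median coverage of the 10 clusters with the most members, as multiples of the median coverage of each library over all CpGs, on a log scale, with a point for each of the 6 libraries (red shades care, blue shades no care). Clusters on scaffold677, scaffold614, scaffold1519 and scaffold986 average between 449 and 2736 times the median with little spread, and scaffold1547 spreads from 2.20 to 23.9 times.

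The cluster on scaffold677, from position 1377 to 2897 in assembly v1.1, was an array of regularly repeated CpGs. Its 45 members, which were all the CpGs listed in the stretch, stood at 5 offsets of 0, 11, 32, 84 and 104 bp that recurred 9 times at a distance of 177 bp. All 40 members with room for a partner 177 bp further on had a member exactly there. The same held at 354, 531 and 708 bp, and the next best distance reached 42.3% of members. Mean coverage was 21991 reads in the first unit of 5 CpGs, 58216, 58300 and 58237 reads in the fourth to sixth units and 17905 reads in the ninth, so it formed a plateau that fell off at both ends. The 5 deepest members of the whole set lay in this plateau, at positions 2366, 2189 and 2012, which share an offset, and at 2346 and 2169, which share another.

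Regular spacing recurred on other deep scaffolds. Distances from 50 to 800 bp were tried in each cluster of at least 10 members with at least 8 possible pairs, and the distance with the most matching members was kept. Among the 8 such clusters at 100 or more times the library median, 7 had a distance that matched at least 40% of possible pairs, and that distance was between 173 and 180 bp in each. It was 174 bp on scaffold614 (19 of 25 pairs), 173 bp on scaffold1519 (15 of 19), scaffold478 (8 of 9) and scaffold3878 (5 of 11), 177 bp on scaffold986 (9 of 17) and 180 bp on scaffold1400 (8 of 8). On scaffold1400 a spacing of 90 bp, which divides 180 bp, also matched 90.9% of pairs. The eighth, on scaffold240.2, reached 12.5%. Among the 11 such clusters under 100 times the median, the best distance matched between 11.1% and 30% of pairs and no cluster reached 40%.

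Scaffold1519 and scaffold478 also shared the order of CpGs within the repeated length. When positions were reduced to offsets within 173 bp and shifted against each other, all 5 offsets of scaffold1519 coincided with offsets among the 8 of scaffold478 at the best shift, while the next best shift gave 2. For 177 bp, 4 of the 5 offsets of scaffold677 coincided with offsets among the 12 of scaffold986, which is close to the next best shift of 3. Scaffold3878 shared 3 of its 10 offsets with scaffold1519 and 4 with scaffold478, which is close to the next best shifts of 2 and 4. The spacing was noticed in the data and is given as a description, with no test. No sequence of these scaffolds was read.

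**Figure D2:**
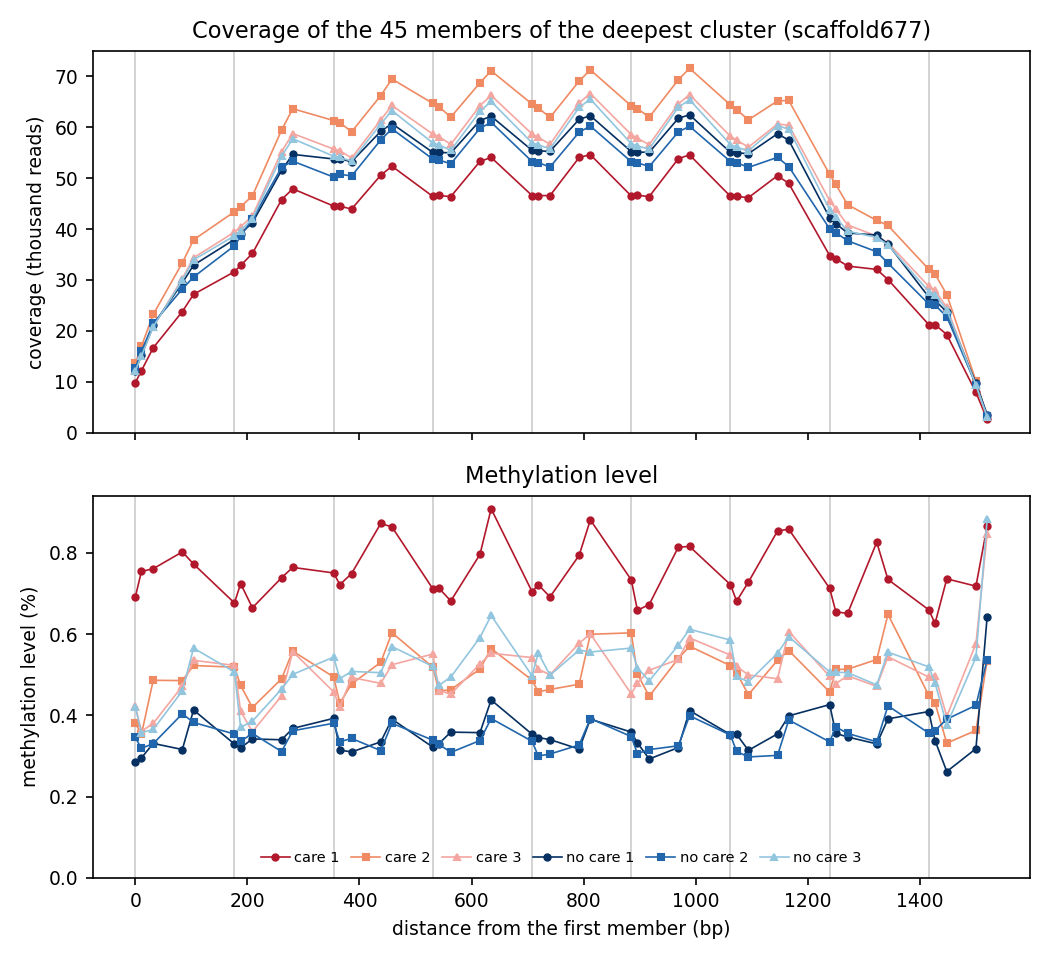
Coverage in units of 1000 reads (upper panel) and methylation level in percent (lower panel) of the 45 members of the scaffold677 cluster in each library, against the distance from the first member, with grey lines every 177 bp. Coverage forms a plateau with small peaks that recur in each repeated unit, and care replicate 1 lies above the other libraries in level at 44 of 45 members although its coverage is the lowest.

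Levels of the members were low. Over all member reads, the methylated share was 0.701%, 0.565% and 0.522% in care replicates 1, 2 and 3 and 0.461%, 0.433% and 0.548% in no care replicates 1, 2 and 3. In lambda DNA, over the 47 listed positions, it was 0.559%, 0.521% and 0.628% in care and 0.512%, 0.510% and 0.482% in no care. The members lay above lambda in 3 of 6 libraries, by 0.00321 ± 0.0960 percentage points on average (SD, n = 6 libraries, two-sided exact sign-flip permutation test, p = 0.938). All other CpGs together lay between 23.1% and 24.2%, and the members were lower in 6 of 6 libraries, by a mean difference of -23.0 ± 0.384 points (same exact permutation test, n = 6, p = 0.0312, the smallest that 6 libraries allow).

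Both comparisons rest on how the list was made and on how reads are weighted. The list keeps CpGs that passed a binomial test against the nonconversion rate in at least 1 library, so deep CpGs enter it at lower levels. Among listed CpGs with a mean coverage from 10 to 20 reads, the highest library of every CpG reached at least 7.14%, while over 10000 reads the lowest such value was 0.403%. The lambda positions are the listed ones too. With every member given the same weight, the mean level lay above lambda in the same test by 1.88 points (exact permutation test, n = 6, p = 0.0312). The list sets a higher floor for the shallower members, so this test cannot decide whether the members lie above lambda.

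The single members ranged from a mean level of 0.272% to 49.0%, with a median of 0.909%, while the other CpGs had a median of 15%. A mean level under 1% was found at 512 members (52.6%), from 1% to under 5% at 354 (36.3%) and of at least 5% at 108 (11.1%). Among the other CpGs 82.0% had a mean level of at least 5% and 751 had one under 1%. Between 71 members (care replicate 2) and 161 members (care replicate 3) had no methylated read in a library.

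Level fell with coverage across members (Spearman's rho -0.741 over 974 CpGs, which share libraries and scaffolds and are not independent). The highest library of every member reached at least 1.56% under 200 reads of mean coverage, and at least 0.403% above 10000. The lower bound of the levels thus fell with coverage by the making of the list, and its part in the fall was not tested. In 4 classes of mean coverage whose bounds were chosen after the values were seen, the median of the mean levels was 2.14% at the 360 members under 200 reads, 1.05% at the 334 from 200 to 1000, 0.474% at the 156 from 1000 to 10000 and 0.445% at the 124 above. No mean level in the deepest class exceeded 0.639%. These 124 members lay on 11 scaffolds and held 83.3% of member reads, so pooled levels of the members describe mainly these.

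**Figure D3:**
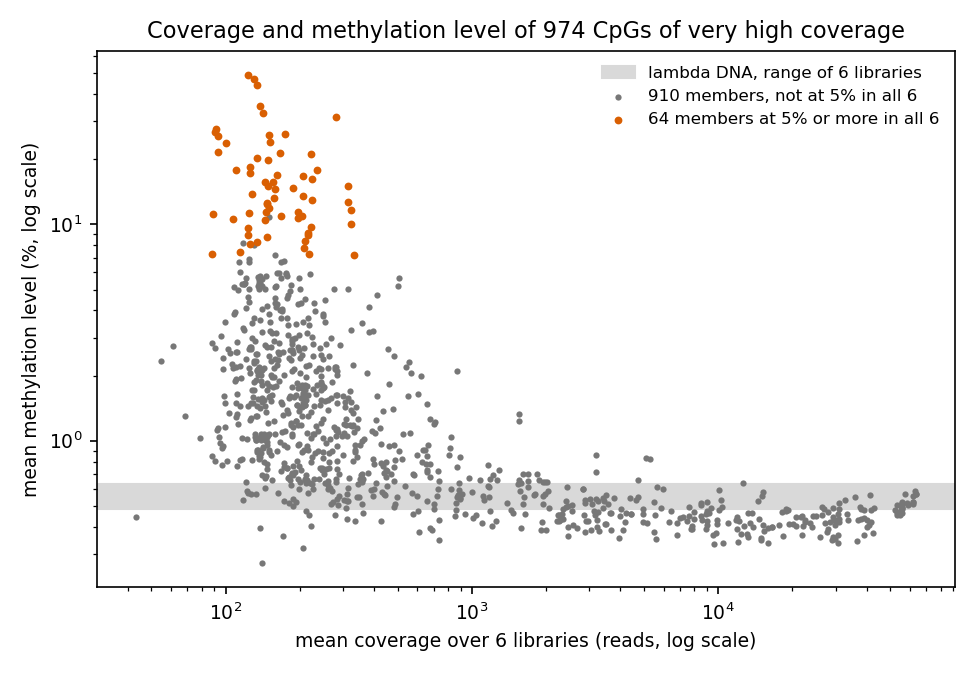
Mean methylation level in percent against mean coverage in reads of the 974 members, both over the 6 libraries and on log scales, with the range of the lambda DNA levels as a grey band. The cloud falls from a level of 49.0% at 123 reads to levels under 1% above 10000 reads, and the 64 members at 5% or more in all 6 libraries have mean coverage between 87.7 and 332 reads.

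In care against no care, the pooled level of all members was 0.596 ± 0.0933% in care and 0.481 ± 0.0599% in no care (mean ± SD, n = 3 each), a difference of -0.115 points (exact permutation test, two-sided, p = 0.2; with 3 pools per group p cannot go below 0.1). The groups overlapped, since no care replicate 3 lay above care replicate 3. The difference was -0.0641 points without scaffold677, -0.0626 points without care replicate 1 and -0.0474 points with the lambda level of each library subtracted (p = 0.7 in the same exact test). With every member given the same weight, the mean level was 2.54%, 2.56% and 2.26% in care and 2.57%, 2.34% and 2.34% in no care. These groups overlapped as well (difference -0.0365 points, exact permutation test, n = 3 each, p = 1).

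By class of coverage, the pooled level was 4.24 ± 0.355% in care and 4.28 ± 0.0657% in no care under 200 reads, and 1.65 ± 0.107% and 1.70 ± 0.120% from 200 to 1000 reads. It was 0.538 ± 0.0999% and 0.423 ± 0.0637% from 1000 to 10000 reads, and 0.527 ± 0.0939% and 0.395 ± 0.0772% above. None of the 4 differences passed (exact permutation tests, n = 3 each, unadjusted p from 0.3 to 0.8, adjusted p from 0.6 to 0.8). In the deepest class the levels were 0.635%, 0.471% and 0.474% in care and 0.356%, 0.344% and 0.484% in no care. Care replicate 1 was highest and no care replicates 1 and 2 were lowest, while the remaining 3 libraries lay close together across both groups.

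**Figure D4:**
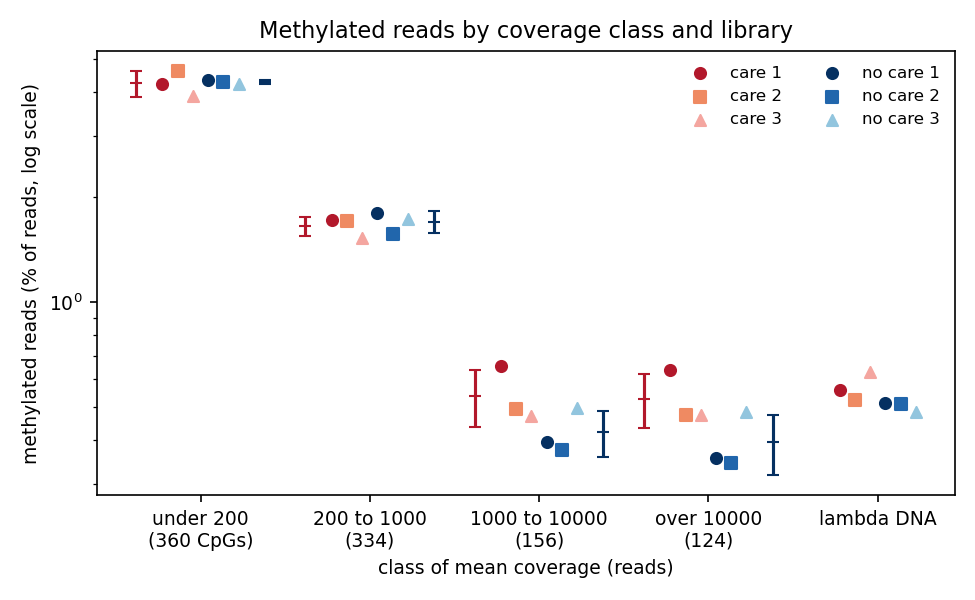
Pooled methylation level in percent of the members in each class of mean coverage, with a point for each library (red shades care, blue shades no care) and the mean ± SD of each group of 3 beside them. Care and no care overlap in all 4 classes, and in the deepest class the libraries range from 0.344% to 0.635%.

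The order of the libraries recurred from CpG to CpG on the deep scaffolds. Of the 280 members with a mean coverage of at least 1000 reads, care replicate 1 was the highest library at 176, and no care replicate 1 or 2 was the lowest at 200. Over the 694 members below 1000 reads, care replicate 1 was highest at 117 and no care replicate 1 at 158. On scaffold478 care replicate 1 was highest at 16 of 16 members, whereas on scaffold614 no care replicate 3 was highest at 12 of 26. In lambda DNA care replicate 3 was highest, at 0.628%, and no care replicate 3 lowest, at 0.482%, so the order there was another. Neighbouring CpGs share reads and are not independent.

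Levels in the scaffold677 array differed between offsets within the unit, most clearly at the fifth. Averaged over the 9 units, the mean level was 0.487%, 0.458%, 0.453%, 0.501% and 0.574% at the 5 offsets in order, with an SD over units between 0.0177 and 0.0580 points. The placement of reads among the units is not known, so the units are not independent replicates. At the fifth offset the units ran from 0.518% to 0.719%. The fifth offset was the highest of the 5 in each of the 6 libraries, at 0.830%, 0.574% and 0.595% in care and 0.427%, 0.406% and 0.609% in no care. For the whole cluster the pooled level was 0.754%, 0.506% and 0.505% in care and 0.352%, 0.345% and 0.521% in no care. The groups overlapped through no care replicate 3. At position 2366, the deepest member, coverage was 54541, 71522 and 66361 reads in care and 62399, 60150 and 65349 reads in no care. Its level was 0.816%, 0.570% and 0.591% in care and 0.412%, 0.399% and 0.612% in no care, with no care replicate 3 above care replicates 2 and 3. At position 2189 the level was 0.881%, 0.60% and 0.601% in care and 0.391%, 0.392% and 0.556% in no care, and there the groups did not overlap.

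The other deep clusters had levels of the same size. The cluster on scaffold614 (positions 24599 to 26147, 26 members) had 0.449%, 0.462% and 0.473% in care and 0.358%, 0.355% and 0.482% in no care, so that no care replicate 3 was highest. That on scaffold1519 (2063 to 2948, 21 members) had 0.589%, 0.406% and 0.413% in care and 0.32%, 0.310% and 0.414% in no care, again with overlap. That on scaffold986 (12385 to 13283, 21 members) had 0.647%, 0.475% and 0.472% in care and 0.373%, 0.319% and 0.471% in no care. Its groups were separated by less than 0.001 points between the third replicates. On scaffold1400 (9203 to 9670, 14 members), named after its values were seen, the libraries were nearly level, at 0.432%, 0.413% and 0.421% in care and 0.424%, 0.417% and 0.464% in no care.

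The largest cluster by members, on scaffold1547 (positions 3226 to 4989, 46 members), differed most between libraries. Its median coverage was 6.07, 7.75 and 2.67 times the library median in care and 23.9, 6.93 and 2.20 times in no care. No care replicate 1 had more than 10 times the relative coverage of no care replicate 3, so the widest spread lay within the no care group. The care libraries were also unequal, from 2.67 to 7.75 times. The level was 1.94%, 1.43% and 0.467% in care and 2.66%, 1.74% and 0.306% in no care. No care replicate 1 had the highest level too, and the third replicates of both groups, with the lowest coverage, had the lowest levels, while care replicate 2 had more coverage than care replicate 1 and a lower level. All 50 members of this scaffold passed the limit in no care replicate 1, against 1, 29 and 0 in care and 22 and 0 in no care replicates 2 and 3. No care replicate 1 was thus the only library in which all of them passed, while 29 passed in care replicate 2 as well. Over the 50 members of the whole scaffold, no care replicate 1 had 723 methylated reads of 28743 and no care replicate 3 had 9 of 2519. The part of the unequal coverage in these levels was not tested.

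A similar spread was seen in smaller clusters, which were picked after their values were seen. On scaffold986, from position 9452 to 9857, the level of 13 members was 7.58% in no care replicate 1, against 1.58%, 2.69% and 0.875% in care and 3.42% and 0.563% in no care replicates 2 and 3. Relative coverage of no care replicate 1 was the highest there too, at 10.6 times the library median. On scaffold408.2, from 2467 to 2625, the level of 10 members was 4.47% in no care replicate 1 and between 0.713% and 1.57% in the other libraries. There relative coverage of no care replicate 1, at 7.15 times, was not the highest. In both clusters a single library of the no care group stood apart, and the groups overlapped.

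Some clusters of moderate depth carried higher levels than the deep clusters. This did not hold evenly, since the scaffold1547 cluster had a similar depth, at 8.25 times the median, and lower levels than those given here. On scaffold573.2 (positions 3390 to 5295, 43 members) the level was 7.23%, 6.96% and 5.77% in care and 6.27%, 7.48% and 5.15% in no care. On scaffold316.2 (12021 to 12811, 22 members) it was 5.14%, 7.29% and 8.38% in care and 7.10%, 6.97% and 7.44% in no care. On scaffold3472 (1175 to 3601, 28 members) it was 2.77%, 2.99% and 2.97% in care and 1.99%, 3.47% and 2.67% in no care. The groups overlapped in all 3 of these. The mean levels of single CpGs within the scaffold573.2 cluster ran from 1.23% to 25.8%, so methylated and weakly methylated CpGs stood side by side.

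Scaffold48.2 held 2 of the 10 largest clusters. At positions 2032144 to 2032908 (24 members, 16.8 times the median) the level was 2.67%, 2.61% and 2.22% in care and 3.13%, 2.26% and 2.93% in no care. At 2073708 to 2075240 (26 members, 9.47 times the median) it was 4.89%, 4.34% and 4.41% in care and 3.86%, 3.77% and 4.08% in no care. In the second cluster all 3 care libraries lay above all 3 no care libraries, with means of 4.54 ± 0.298% and 3.91 ± 0.162%. The other CpGs of this scaffold had pooled levels between 21.9% and 22.9%, well above both clusters.

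The members at 5% or more in all 6 libraries numbered 64 (6.57%), on 13 scaffolds in 13 clusters. All 64 had a mean coverage under 1000 reads, with a median of 149 reads, and none of the 280 deeper members was among them. Among the other CpGs 127037 (45.8%) reached 5% in all 6 libraries. At least 5% in any library was found at 198 members and in no library at 776 (79.7%). Mean levels of the 64 sites lay between 7.25% and 49.0%, the median being 13.7%, and 17 of them had at least 20%.

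The most methylated members lay together on scaffold90, where 12 CpGs between positions 83063 and 83252 reached 5% in all libraries. All 12 passed the coverage limit in care replicate 2 alone, at 171 to 248 reads, against 61 to 144 reads in the other libraries. Only 15 of the 4962 listed CpGs of this scaffold were members. The highest level of all was at position 83063, with 58.9%, 52.1% and 43.0% in care and 55.3%, 35.4% and 49.2% in no care, at coverage between 95 and 194 reads. Positions 83075, 83082, 83102 and 83117 followed with mean levels of 46.8%, 44.1%, 35.4% and 32.6%. Over the 12 CpGs the mean was 25.9%, 27.4% and 21.3% in care and 28.5%, 20.4% and 25.5% in no care. The group means were 24.8 ± 3.16% and 24.8 ± 4.13%, within the spread between libraries.

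Next came position 2476 of scaffold2574, with 32.6%, 33.9% and 33.3% in care and 31.1%, 23.5% and 33.1% in no care. The groups overlapped, since no care replicate 3 lay above care replicate 1, and no care replicate 2 was the low library. Positions 443463 and 443483 of scaffold71 had mean levels of 27.5% and 26.6%, and position 17887 of scaffold525 had 26.3%. Those of scaffold71 passed the coverage limit in care replicate 2 alone, at 179 and 171 reads. Position 3471 of scaffold573.2 averaged 25.8%, with 28.6%, 34.3% and 11.8% in care and 24.4%, 30% and 25.9% in no care, so care replicates 2 and 3 were its extremes.

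**Figure D5:**
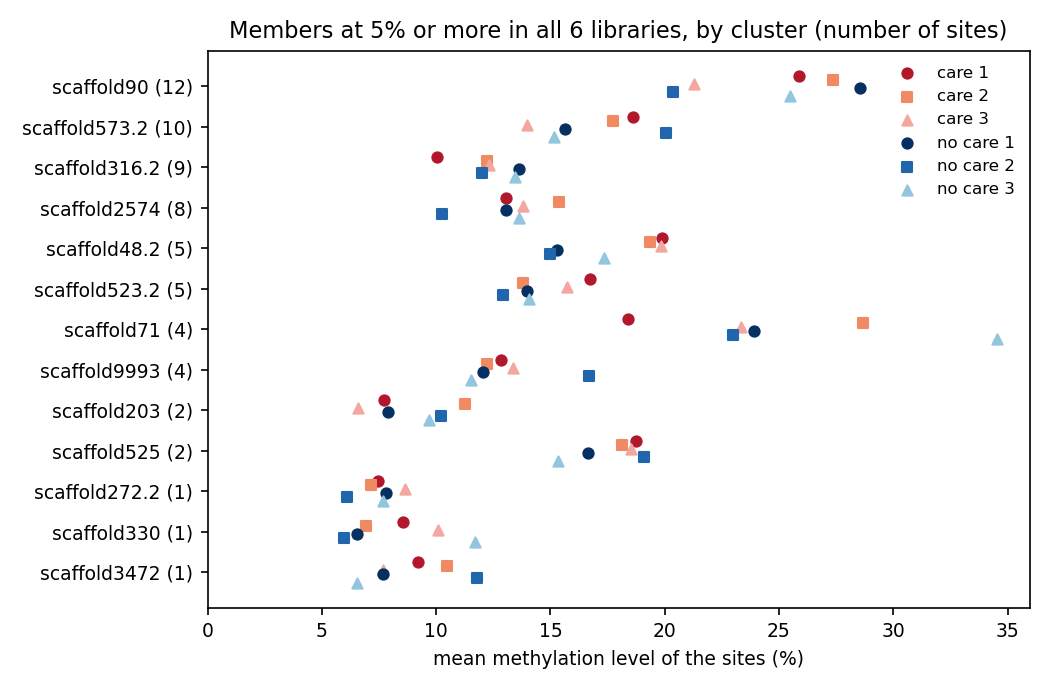
Mean methylation level in percent of the members at 5% or more in all 6 libraries, by cluster, with the number of sites in parentheses and a point for each library (red shades care, blue shades no care). The libraries overlap between groups in 12 of 13 clusters, and only the 5 sites of scaffold48.2 have all care libraries, from 19.4% to 19.9%, above all no care libraries, from 15% to 17.4%.

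Over the 64 sites the mean level was 16.8%, 18.0% and 15.9% in care and 17.0%, 15.9% and 17.3% in no care. The group means of 16.9 ± 1.05% and 16.7 ± 0.735% differed by less than the spread between libraries (difference -0.203 points, exact permutation test, n = 3 each, p = 0.9). Care was higher in the mean at 36 of the 64 sites. By cluster, the groups overlapped in 12 of 13. Over single CpGs of the whole table, all care libraries lay above all no care libraries at 6.4%, and the reverse held at 3.62%. In the remaining cluster, 5 sites of scaffold48.2 between positions 2074952 and 2075196, the mean was 19.9%, 19.4% and 19.8% in care and 15.3%, 15% and 17.4% in no care. This is a difference of -3.82 points, and the cluster was singled out after its values were seen.

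The test of each CpG over the whole table took CpGs with at least 10 reads in each library, 168037 in all and 971 of the 974 members. Methylated and unmethylated reads were compared by a logistic regression without overdispersion, and a call needed an adjusted p under 0.01 (Benjamini-Hochberg over all CpGs) and a difference above 5 percentage points. No member was called, and percent called over the table was 0. At an unadjusted p under 0.05 there were 271 members by the logistic regression (27.9%, against 10.6% of all CpGs tested) and 45 by limma on log2 odds (4.63%, against 5.47%), which also called 0 after adjustment. A difference above 5 points was reached by 6 members (0.618%), with a smallest adjusted p of 0.201, against 32.0% of all CpGs tested. The 776 members (79.7%) under 5% in every library had, by their measured levels, no difference above 5 points. Their absence of calls therefore adds nothing to these levels and does not bear on smaller differences between care and no care.

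Without the minimum difference, 39 members passed an adjusted p of 0.01, against 0.0232% of all CpGs tested, and these 39 were all the calls of the table. All 39 were higher in care, 33 on scaffold677, 5 on scaffold478 and 1 on scaffold986. Their differences were between 0.115 and 0.329 percentage points at a median coverage of 54690 reads. In 11 of them all care libraries lay above all no care libraries, against 6.4% of all CpGs tested. The 39 were picked by the p of this same contrast, so the 11 are not separate evidence of a difference. The count was 5 without care replicate 1, 18 without no care replicate 1, 17 without no care replicate 2 and between 43 and 48 without each of the others. It was 0 by limma, and 0 when the spread between libraries was estimated for each CpG. In the latter test 3 of the 39, and 23 of all members tested (2.37%, against 0.960% of all CpGs), had an unadjusted p under 0.05. The overdispersion of members with at least 1000 reads was 2.62 at the median, against 0.971 over all CpGs tested.

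All 3 care libraries lay above all 3 no care libraries at 72 members (7.42%), against 6.4% of all CpGs tested. The reverse order was found at 32 members (3.30%), against 3.62%. Both shares were near those of the whole table. The mean of care was the higher at 578 members (59.5%), and at 56.2% of all CpGs.

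Windows of 200 bp with at least 2 CpGs took in 625 members, while 349 were alone in their window and were not tested. Among 45441 tested windows, 169 held a member. A single one of these was called in the same regression at an adjusted p under 0.01 and above 5 points, against 0.337% of all windows (0.282% higher in care and 0.055% higher in no care). It covered positions 2075201 to 2075400 of scaffold48.2 and held 4 CpGs, of which 1 was a member. Its level was 19.3%, 17.2% and 18.8% in care and 10.5%, 7.15% and 18.6% in no care. The difference of -7.02 points (18.5 ± 1.09% in care, 12.1 ± 5.91% in no care, logistic regression, adjusted p = 3.66e-05) came with overlapping groups, and the call was lost without no care replicate 2. The window starts next to the 5 sites of scaffold48.2 described above. Without the minimum difference 27 windows holding a member passed, against 0.456% of all windows, and 24 of them were higher in care, against 0.361%. The smallest adjusted p among them (logistic regression, 1.05e-70) was on scaffold677 at positions 1801 to 2000. The difference there was only -0.178 points, and the groups overlapped. This regression leaves out the spread between libraries, and the count of 27 was not repeated with that spread included. Windows with all care libraries above all no care libraries numbered 17 of 169, against 7.86% of all windows, and the reverse held for 6, against 3.81%.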

How the data were processed

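DNA methylation was measured by bisulfite sequencing in 3 care and 3 no care libraries, grouped and numbered by the sample labels. According to the methods, the authors trimmed reads with Trimmomatic (0.32 in the submitters' notes), aligned them with Bismark (0.14.5) to assembly v1.1, removed duplicates, merged strands and kept CpGs that passed a binomial test against nonconversion in any library. How reads from repeated sequence were placed is not given in the sources used here. The deposited values are the coverage, a count of reads per CpG, and the percent of methylated and unmethylated reads. The study left out CpGs above 170 reads in any sample before its own test of windows, as potential PCR artifacts. These are the CpGs kept here. Methylated reads were recovered as percent times coverage and were whole (within 0.001) in 100% of values.

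Coverage was divided by the median of each library over all listed CpGs. Pooled levels are methylated reads over all reads of a set, and each library counted once in exact permutation tests. Clusters joined members at most 500 bp apart, and the spacing within clusters was described after the positions were seen. CpGs and windows were tested by logistic regression on reads with Benjamini-Hochberg adjustment over the whole table. Tests on pooled reads do not include the spread between pools. The regions and sites named are the 10 clusters with the most members, the 5 deepest members, the 10 members with the highest mean level among those at 5% or more in all 6 libraries, called members without overlap between groups (up to 3 in each direction) and those next to the limit. Others are said to be chosen after their values were seen. The members, lists and tests were chosen with earlier results of these data known. Alternatives were other limits of coverage and level, other gaps, other models, windows shifted by 100 bp, lambda subtracted, scaffolds or libraries left out and the replicate number as a block. Python 3.11.15, numpy 2.4.6, scipy 1.17.1, pandas 2.3.3, matplotlib 3.10.9, R 4.3.3 and limma 3.58.1 were used, and the scripts were tested on simulated data. The RNA libraries, gene models and genome sequence were not used here.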

Additional observations from a re-analysis of the deposited data

How the results depend on the processing

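Replicate numbers did not pair the libraries: deviations of same-numbered libraries over members correlated at 0.0788, -0.149 and 0.0143. With the replicate block the pooled difference between groups stayed at -0.115 points (p = 0.5, exact permutation within pairs), and CpGs passing an adjusted p alone numbered 54, including all 39. Pooled over members under 1000 reads, the difference was 0.125 points and so reversed, with lambda subtracted it was -0.0474, and leaving out each library gave -0.152 to -0.0626. The equal-weight difference reversed to 0.0303 with lambda subtracted, and leaving out each library gave -0.135 to 0.0177 (0.00753 without care replicate 1, 0.0177 without care replicate 2, 0.00307 without no care replicate 2 and 0.00311 without no care replicate 3). At the 64 sites it reversed to 0.104 without scaffold48.2, with -0.705 to 0.339 over libraries left out (0.339 without care replicate 2, 0.215 without no care replicate 2). None of these passed a test, and the cause was not tested. The number of sites was 128 at 2%, 34 at 10%, 108 at 5% of pooled reads, and 1361, 13 and 8 for CpGs above 100 reads, above 300 reads, and above 170 in all 6 libraries. Members minus lambda was 0.645 points above 100 reads and 1.88 for the mean of CpG levels (both p = 0.0312, exact permutation), and it reversed to -0.0419 above 300 reads, -0.00539 without scaffold48.2 and, with each library left out, ran from -0.0245 to 0.0250 (-0.0245 without care replicate 1, -0.00501 without care replicate 2, -0.00939 without no care replicate 3). For members minus lambda, the list sets a higher floor for shallower CpGs, so neither p of 0.0312 (exact permutation) decides whether they lie above lambda. Members minus other CpGs ran from -23.1 to -22.9 with a library left out, where 5 libraries allow no p below 0.0625. Called CpGs numbered 39 with no minimum difference. By adjusted p alone they numbered 0 with limma, 0 with overdispersion of each CpG and 5 to 48 with a library left out. Called windows holding a member numbered 2 with windows shifted by 100 bp, 27 with no minimum difference and 0 to 1 with a library left out. Clusters numbered 399 and 355 with gaps of 200 and 1000 bp. The alternatives on mean coverage, on scaffold677 and on the spread for adjusted p alone were chosen after seeing the data. At 10 to 20 reads a listed CpG reached at least 7.14% in its highest library, so levels of shallow and deep CpGs are not comparable below that.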
